A study of Homo sapiens with 10 samples.

Results

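The loci of 7 genes that mark pluripotent and germ cells, DPPA2, DPPA3, DPPA4, ZFP42, UTF1, PRDM14 and SALL4, were examined in a list of nucleosome positions from human induced pluripotent stem cells (hiPSCs). Each locus was the annotated gene with 10 kb on either side (GENCODE release 44 on GRCh38; the study's methods name release 48). Together the loci held 1129 of the 12921589 listed positions, which is 0.00874%. DPPA2 and DPPA4 lie 9626 bp apart on chromosome 3, so 55 positions belonged to both of their loci, and the counts of the loci add up to 1184. The genes were chosen by name and not by any value in the list. Because the list carries no RNA measurement, expression of the genes was not examined.

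Chromatin of the hiPSC line PB010.5, a line with a FUCCI cell cycle reporter inserted at EEF2, was cut for 5 min with micrococcal nuclease (MNase), an enzyme that digests the linker DNA between nucleosomes. The 5 reactions received enzyme from 0.5 U through 1, 3 and 6 to 10 U, with 1 library for each amount. Yeast spike-in DNA was added after digestion, just before the libraries were prepared. Each library went through 150-bp paired-end and 50-bp paired-end sequencing, giving 10 samples. The authors called 1 list from pooled libraries, and the methods name the nucMACC workflow but neither the runs pooled nor the program within it that called the positions, while stating that the 50-bp runs were not taken further. No position has a value for a single enzyme amount or library, so there is no replicate error, nothing was tested, and all comparisons below describe this 1 list from 1 cell line.

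Each entry is a 140-bp interval with a score, a signal whose scaling the sources do not give. Scores rose in steps of 1.23 and had a median of 14.8, which is 12 steps, with quartiles of 9.87 and 19.7 and a highest value of 149. Differences of 1 step are the finest the list resolves. Midpoints lay on a 10-bp grid for 94.4% of positions. The number of reads behind a score is unknown, so no counting interval can be given.

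The nucleosome wraps DNA around a core of histones, and genes in use commonly have a region poor in nucleosomes just before the transcription start, flanked by a well-placed downstream (+1) and upstream (-1) nucleosome. The 7 genes belong to the circle around the core factors OCT4, SOX2 and NANOG. DPPA2 and DPPA4 are neighbouring genes for SAP-domain chromatin proteins that act together in early embryos and pluripotent cells, and DPPA3 (STELLA) is an egg and germ cell protein that guards DNA methylation in the zygote. ZFP42 (REX1) is a zinc-finger marker of undifferentiated cells and UTF1 a chromatin-bound factor of undifferentiated embryonic stem cells. PRDM14 is a zinc-finger regulator of primordial germ cells, and SALL4 is a zinc-finger protein of pluripotent and germ cells.

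The 200 bases before the start are shown for 5 of the genes, because these bases show directly how much of each promoter was covered by called positions. They are RefSeq sequence (GRCh38.p14), read 5′ to 3′ towards the start, and the last base is the one before the start. Capitals mark bases inside a called position and lower case marks bases that no position covered. They contain no annotated UTR.
DPPA2, chr3:109316518-109316717, minus strand: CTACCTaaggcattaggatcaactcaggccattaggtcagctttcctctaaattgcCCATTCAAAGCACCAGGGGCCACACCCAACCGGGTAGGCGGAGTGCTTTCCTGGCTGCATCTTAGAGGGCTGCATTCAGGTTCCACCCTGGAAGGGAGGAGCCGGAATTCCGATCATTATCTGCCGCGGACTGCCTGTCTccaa
DPPA4, chr3:109337547-109337746, minus strand: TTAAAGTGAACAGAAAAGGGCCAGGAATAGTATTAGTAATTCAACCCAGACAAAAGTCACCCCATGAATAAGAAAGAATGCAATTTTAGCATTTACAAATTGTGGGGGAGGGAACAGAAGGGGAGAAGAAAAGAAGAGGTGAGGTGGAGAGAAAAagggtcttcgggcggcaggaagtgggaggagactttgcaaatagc
DPPA3, chr12:7711233-7711432, plus strand: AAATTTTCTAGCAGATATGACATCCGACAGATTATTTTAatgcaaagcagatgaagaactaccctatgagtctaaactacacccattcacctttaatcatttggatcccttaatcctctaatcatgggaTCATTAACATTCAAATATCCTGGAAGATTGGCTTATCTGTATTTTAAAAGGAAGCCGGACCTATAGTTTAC
ZFP42, chr4:187995571-187995770, plus strand: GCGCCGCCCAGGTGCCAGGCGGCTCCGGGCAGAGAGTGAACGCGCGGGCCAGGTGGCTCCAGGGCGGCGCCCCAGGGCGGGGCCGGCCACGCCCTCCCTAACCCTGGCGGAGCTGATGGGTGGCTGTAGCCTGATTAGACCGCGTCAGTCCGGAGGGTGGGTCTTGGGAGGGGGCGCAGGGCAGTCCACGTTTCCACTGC
UTF1, chr10:133230017-133230216, plus strand: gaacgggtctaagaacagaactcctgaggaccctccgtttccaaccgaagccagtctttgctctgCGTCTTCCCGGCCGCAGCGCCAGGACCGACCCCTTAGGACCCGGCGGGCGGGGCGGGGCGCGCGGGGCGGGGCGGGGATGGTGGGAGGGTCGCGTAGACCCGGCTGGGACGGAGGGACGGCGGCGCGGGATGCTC

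The printed promoters differed widely in cover and base composition. At ZFP42 all 200 bases lay inside positions and 73.5% of them were G or C, with 18 CpG. UTF1 was similar in composition, with 72.0% GC and 25 CpG, but only its 135 bases nearest the start were covered. The DPPA2 promoter had 55.0% GC, 6 CpG and 146 covered bases, with the last 4 bases before the start uncovered. DPPA4 had 43.5% GC, 2 CpG and 155 covered bases, and its 45 bases nearest the start formed the uncovered part. At DPPA3, the poorest in GC at 35.0% with 2 CpG, 110 bases were covered and the 90 uncovered bases lay in the middle of the stretch. For PRDM14, 151 of the corresponding 200 bases were covered. SALL4 was the only member in which none of the 200 bases was covered. Over all autosomal protein-coding genes with a position within 1 kb on each side of the start, the median was 136 covered bases. Of these genes 9.01% were covered throughout.

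Some promoter motifs were present in the 250 bases before these 5 starts, on both strands. The GC box GGGCGG was found at DPPA4, ZFP42 and UTF1, against 42.6% of 35116 RefSeq promoters searched over the same length. Its match at DPPA4, 36 to 31 bp before the start, lay in the uncovered stretch. The 3 matches at ZFP42 were inside positions. So were the 4 at UTF1, of which the match from -90 to -85 shares a base with that from -85 to -80, and that from -71 to -66 with that from -66 to -61. CCAAT was found at DPPA4, 236 bp before the start and outside the printed stretch, and on the reverse strand at DPPA3, 45 bp before it, both inside positions. Among all promoters 32.0% hold CCAAT. No match to TATAAA (10.7% of promoters) or to the octamer ATGCAAAT (1.63%) was found in the 5 windows, and DPPA2 held none of the 4 motifs.

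At DPPA2 (ENSG00000163530.4, minus strand, chromosome 3 from 109293788 to 109316517), the start was framed by a position on each side. The downstream position (chr3:109316302-109316441) was centred 146 bp from the start, lay wholly in the 5′UTR and scored 23.4, above 85.7% of the positions on the chromosome. Its upstream neighbour was centred 74 bp before the start and scored 18.5, and the midpoints were 220 bp apart. Within 1 kb of the start 11 positions scored between 9.87 and 23.4, and the downstream position was the highest of them. In these distances DPPA2 was in the middle of other genes with like GC content. Of 2096 autosomal protein-coding genes whose 1001 bp around the start had a GC content within 2 percentage points, 45.8% had a smaller distance across the start, and 44.6% had a downstream position of lower rank on its chromosome. The mean score of the 11 positions was 16.4, below the median of 20.0 in those genes, of which 15.7% had a lower mean.

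The partner gene DPPA4 (ENSG00000121570.13, minus strand, chromosome 3 from 109326144 to 109337546) had a similar spacing with weaker positions. The downstream position (chr3:109337352-109337491) was centred at 125 bp, overlapped the coding sequence by 28 bp and an intron by 112 bp, and scored 17.3. The upstream position, centred at 115 bp, scored 8.64, under the lower quartile of the whole list, and 16.0% of positions on the chromosome were lower. The midpoints were 240 bp apart. Within 1 kb of the start there were 9 positions, the fewest of the 7 genes, with scores of 7.40, 22.2, 6.17, 12.3 and 8.64 upstream and 17.3, 4.94, 18.5 and 6.17 downstream. Their mean of 11.5 was the lowest of the 7 members, and 2.27% of 750 genes of like GC content had a lower one.

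DPPA3 (ENSG00000187569.3, plus strand, chromosome 12 from 7711433 to 7717559) had a position over the start itself. It was centred 2 bp before the start (chr12:7711362-7711501), covered 69 bp of the 5′UTR and scored 9.87, with 18.6% of positions on the chromosome lower. The next position downstream, centred at 165 bp, lay over 42 bp of 5′UTR and 82 coding bases, with its last 16 bp in an intron, and scored 13.6. The higher positions stood further out, with 23.4 at -412 bp and 21.0 at 328 bp. From 328 to 778 bp downstream no midpoint was called.

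ZFP42 (ENSG00000179059.10, plus strand, chromosome 4 from 187995771 to 188005046) showed the closest packing. The midpoints on either side of the start were 100 bp apart, at -60 and 40 bp, which is the shortest distance between neighbours on any autosome in the list, so the 140-bp intervals overlapped across the start. They scored 11.1 and 12.3. Since no shorter distance exists in the list, none of 2661 genes of like GC content could have a smaller one. The median of those genes was 230 bp and their lower quartile 180 bp. With 14 positions within 1 kb of the start, more than in 98.4% of these genes, ZFP42 had the most of the 7, and their mean score was 15.2, lower than in most, with 5.82% of those genes below it. Overlapping intervals cannot all be occupied on 1 DNA molecule, and a pooled list does not tell which of them coexist.

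UTF1 (ENSG00000171794.4, plus strand, chromosome 10 from 133230217 to 133231558) had the weakest downstream position. It was centred at 64 bp (chr10:133230212-133230351), covered 5 bp before the start, 72 bp of 5′UTR and 63 coding bases, and scored 7.40, above only 3.61% of positions on the chromosome. The upstream position at -66 bp scored 17.3, and the midpoints were 130 bp apart. All 7 positions from the start to 1 kb downstream were low, between 7.40 and 13.6, whereas the 6 upstream scored between 14.8 and 39.5, so the sides did not overlap in score. The region is very rich in GC, at 76.3% over 1001 bp, more than at 96.4% of the genes. Among 983 genes of like GC content, 5.49% had a downstream position of lower rank, and 7.02% had a lower mean score within 1 kb than the 15.4 of UTF1.

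PRDM14 (ENSG00000147596.4, minus strand, chromosome 8 from 70051651 to 70071693) had the strongest pair. Its canonical transcript starts at 70071252, inside the annotated gene, whose outermost start is at 70071693. The downstream position at 91 bp covered 82 bp of 5′UTR and 58 bp of intron and scored 30.8, above 96.5% of the chromosome's positions, and the upstream position at 119 bp scored 24.7, above 88.7%. The midpoints were 210 bp apart. Further downstream, positions of 32.1 and 28.4 stood at 591 and 731 bp. The mean of the 12 positions within 1 kb was 21.3, the highest of the 7 members, and 55.2% of 2944 genes of like GC content had a lower mean.

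SALL4 (ENSG00000101115.13, minus strand, chromosome 20 from 51782331 to 51802521) had the widest opening. The nearest upstream midpoint was 270 bp before the start, with a score of 7.40, and the downstream one at 100 bp covered 83 bp of 5′UTR and 57 coding bases and scored 17.3. These midpoints were 370 bp apart, more than at 86.7% of 2348 genes of like GC content. Positions of 27.1 followed at 260 and 450 bp downstream, so the first position inside the gene was not the highest.

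**Figure D1:**
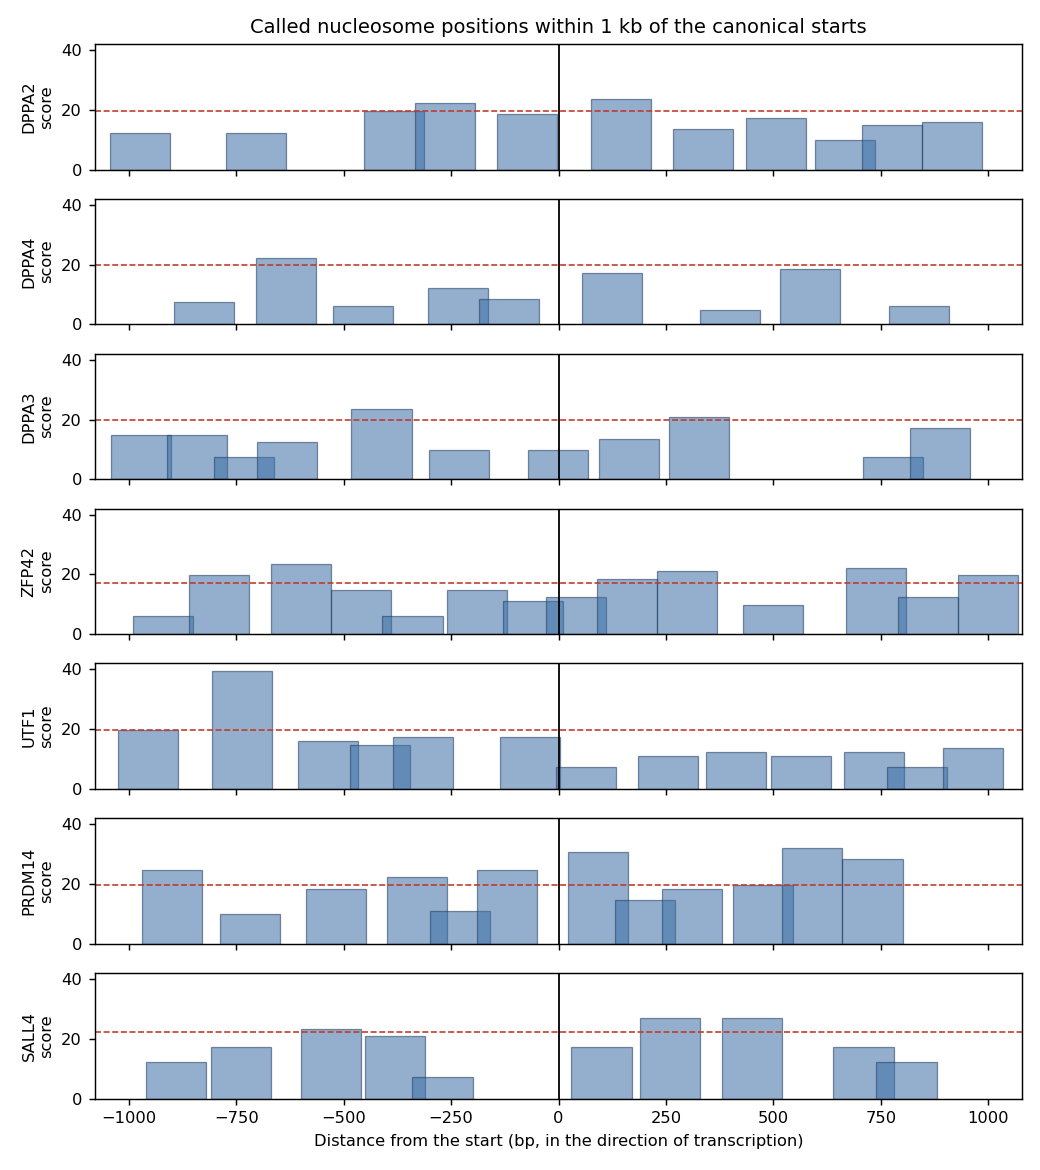
Called positions within 1 kb of the canonical start of each gene, drawn as boxes of 140 bp at their distance from the start (x axis, bp) with the score as height (y axis, authors' signal); dashed lines mark the upper quartile of the gene's chromosome. Of the boxes centred first after each start, those of DPPA2 (23.4) and PRDM14 (30.8) rise above the line, as do several boxes further from the starts, ZFP42 is covered across its start, and SALL4 is open for the 200 bp before it.

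Over the 7 genes the median distance across the start was 210 bp (SD 88.3 over the genes), with a range of 100 to 370 bp. The median was 220 bp over the 18520 of 19111 autosomal protein-coding genes with a position within 1 kb on each side of the start. Shares of all genes in this paragraph are shares of these 18520. A start without a midpoint in the 200 bp before it was found in 1 of the 7, SALL4, beside 23.5% of all genes. The start base lay inside a position in 3 of the 7, DPPA3, ZFP42 and UTF1, beside 52.1%. A downstream position above the upper quartile of its chromosome was found in 2 of the 7, DPPA2 and PRDM14, beside 56.4%. With 7 genes, 1 gene more or less moves each of these counts by a large part, and none was tested.

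The rank of the downstream position varies with the GC content around the start, so the downstream positions were also set against genes of like GC content. Genes in the class from 55% to 60% GC had a median rank of 90.3%, with quartiles of 64.4% and 98.3%, and the median rank was lower both in poorer and in richer classes. ZFP42, at 58.4% GC, had a downstream position of rank 40.5%, and SALL4, at 56.1%, one of 53.7%. Both were under the lower quartile of that class. UTF1 was under the lower quartile of its own class, 32.1% between 75% and 80% GC. DPPA2, DPPA3 and DPPA4 lay between the quartiles of their classes, and PRDM14 alone reached the upper quartile, 96.4%.

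**Figure D2:**
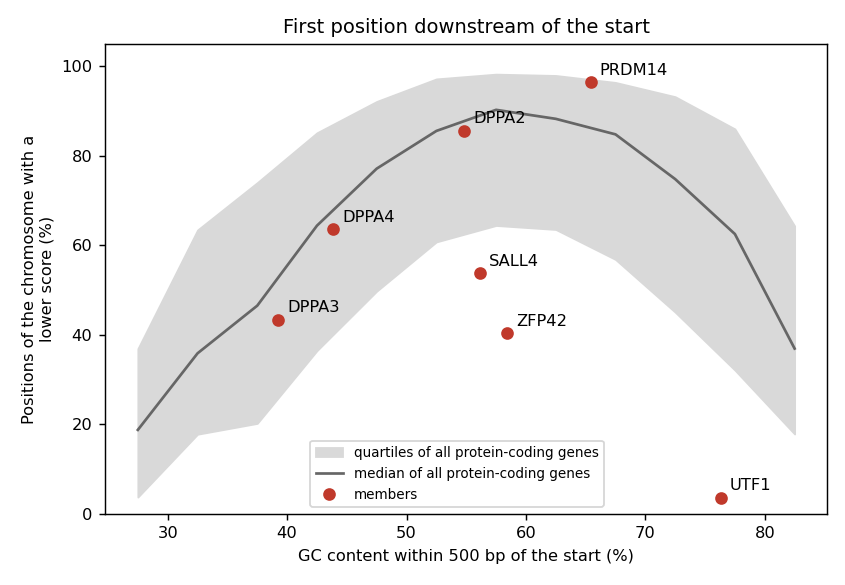
Rank of the first downstream position (y axis, percentage of positions on the same chromosome with a lower score) against the GC content of the 1001 bp around the start (x axis, percent), with the median and quartiles of all autosomal protein-coding genes in classes of 5 percentage points. UTF1 (3.61%), ZFP42 (40.5%) and SALL4 (53.7%) lie under the shaded quartiles, and PRDM14 (96.5%) lies at their upper edge.

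Related genes gave a range of patterns. For comparison, 56.4% of all genes had a downstream position above the upper quartile of their chromosome, and their median distance across the start was 220 bp. All 3 core factors had a downstream position above the upper quartile of their chromosome, from 78.9% at SOX2 to 89.5% at NANOG, and a median distance across the start of 260 bp. Of the SALL paralogs 1 of 3 did, with SALL1 lowest at 60.6% and SALL2 highest at 90.9%. Among 5 genes of germ cell specification 3 did, from TFAP2C at 36.1% to DND1 at 95.4%, with a median distance of 220 bp. None of the 4 later germ cell genes did, where ranks ran from 31.1% at MAEL to 72.0% at SYCP3 and the median distance was 140 bp. Of 4 genes of the naive state 2 did, with ESRRB lowest at 3.80% and TFCP2L1 highest at 94.9%. The lists are small and their differences from the 7 members were not tested.

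Across whole loci, the number of positions was near that of other DNA in most genes. DPPA2 held 222 positions (5.20 per kb), DPPA4 160 (5.10), DPPA3 133 (5.09), ZFP42 137 (4.68), UTF1 104 (4.87), PRDM14 212 (5.29) and SALL4 216 (5.37). Windows of the same length on the same chromosome, with a GC content within 1 percentage point, had median densities between 5.15 and 5.35 per kb. The median log2 ratio of the loci to their windows was -0.053, with an SD of 0.0525 over the loci. The density was below the lower quartile of the windows at 2 loci, ZFP42 and UTF1, and above the upper quartile at none. For UTF1 the quartiles rest on 4 windows. Both loci hold a long uncovered stretch, described below, and its part in their density was not tested. ZFP42 was the sparsest, with 11.8% of 346 windows less dense and a log2 ratio of -0.14. DPPA2 and DPPA4 share 55 positions and are not independent.

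Mean scores were lower than in the windows more often. The mean score was below the median of the windows in 6 of 7 loci and below their lower quartile in 4, DPPA4, ZFP42, UTF1 and SALL4. On the log2 scale the median ratio to the windows was -0.10 (SD 0.0859 over the loci). DPPA4 stood furthest out, with a mean score of 15.1 against a window median of 17.6, and 2.50% of 400 windows were lower. SALL4 had 16.5 against 17.7 and 9.09% of 165 windows lower, and ZFP42 had 15.4 against 16.6 and 10.5% of 342 windows lower. UTF1 had 19.9 against 21.7, but at 61.5% GC only 4 windows of chromosome 10 matched it. DPPA2 (17.0 against 17.3) and PRDM14 (17.7 against 17.9) were near their windows. DPPA3 was the exception, at 18.0 against 17.5.

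**Figure D3:**
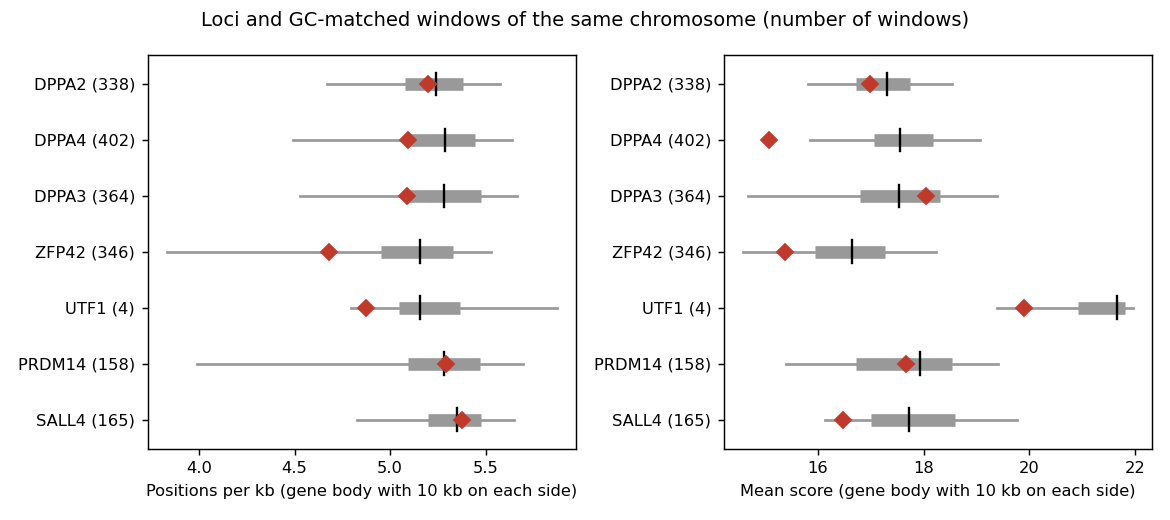
Positions per kb (left) and mean score (right) of each locus (red diamonds) beside GC-matched windows of the same chromosome, shown as the median (black tick), quartiles (thick bar) and 5th to 95th percentiles (thin line), with the number of windows in brackets. Densities lie within the thick bars or at their edge except at ZFP42 (4.68) and UTF1 (4.87), which lie left of them, while the mean score of DPPA4 (15.1) is left of its thin line; the bars of UTF1 rest on 4 windows.

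Within the loci, the low scores were not evenly spread. Over the 2 kb around the start, the mean score was below the window median in 7 of 7 genes and below the lower quartile in 6, and PRDM14 was the exception with 21.3 against 22.0. For UTF1 this rests on the 10 windows, of 21, that held any position. DPPA4 was lowest in this stretch too, at 11.5 against 17.1, and 1.73% of 7361 windows were lower. These windows were not chosen for holding a start, and the comparison with genes of like GC content is the closer one. In it, 33.1% of 613 genes had a lower mean than DPPA3 and 30.0% of 2348 a lower one than SALL4. PRDM14, at 21.3, was above the median of 20.8 in its genes. DPPA2, DPPA4, ZFP42 and UTF1 stood lower, at the shares given above. In the 10 kb after the genes the mean score was above the window median in 4 of 7, most clearly at DPPA3 with 19.0 against 16.9 and 94.0% of windows lower. The SALL4 gene body had 16.4 against 18.7, and 4.60% of windows were lower. The UTF1 gene body, only 1342 bp long, held 10 positions at 7.45 per kb with a mean score of 13.2, denser than all 9 windows that matched it.

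The highest positions of the loci mostly lay away from the starts. The highest of all was a position of 51.8 in an intron of DPPA3 (chr12:7715982-7716121), 4618 bp into the gene and above 99.9% of the positions on chromosome 12. DPPA3 had 4 of its 133 positions above the chromosome's 99th percentile and UTF1 had 3 of 104. The shares of all positions on these chromosomes were 0.98% and 0.83%. The other loci held 0 to 2 such positions. At SALL4 a position of 44.4 lay in an intron 2010 bp from the start. At DPPA4 the highest, 37.0, lay in the 3′UTR. The highest of the DPPA2, ZFP42, UTF1 and PRDM14 loci, at 40.7, 39.5, 44.4 and 37.0, lay outside the genes. The share of positions above the chromosome's upper quartile was higher in 5 of 7 loci than on the chromosome as a whole, without a match for GC content. It was 41.3% against 24.0% at UTF1, 32.5% against 20.2% at PRDM14, 31.4% against 24.9% at ZFP42, 30.1% against 22.9% at DPPA3 and 26.1% against 21.1% at DPPA2. DPPA4 (18.8% against 21.1%) and SALL4 (18.1% against 20.9%) were below. Neighbouring midpoints were 170 to 180 bp apart at the median in every locus, beside 175 to 190 bp on their whole chromosomes.

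**Figure D4:**
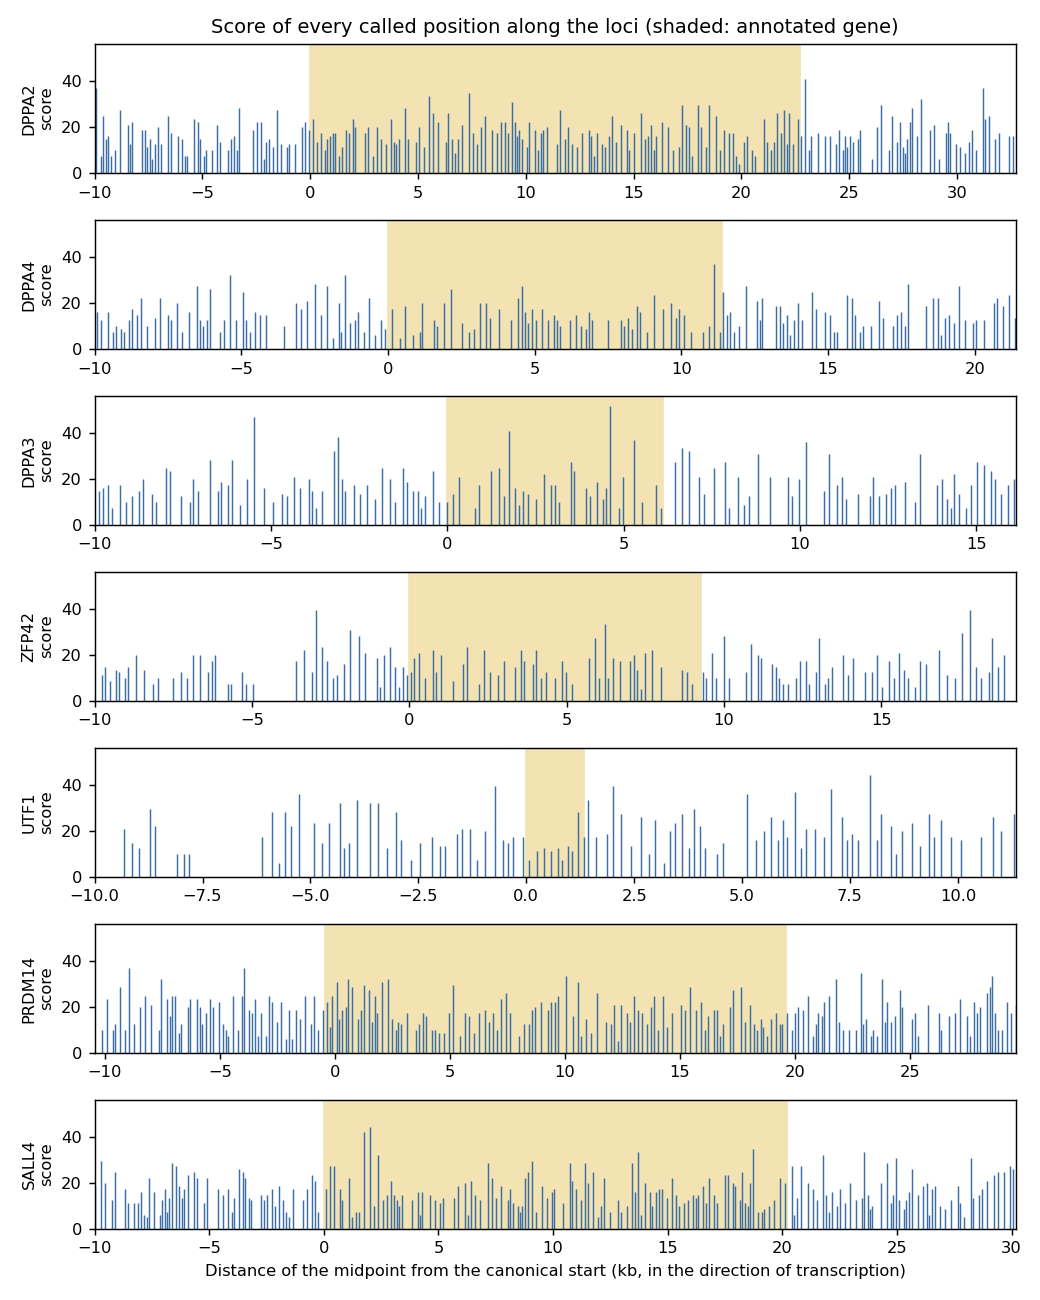
Score (y axis, authors' signal) of every called position along each locus against the distance of its midpoint from the canonical start (x axis, kb), with the annotated gene shaded. The highest line is the intronic position of 51.8 at DPPA3, and the blank stretches before ZFP42 and UTF1 are their widest gaps.

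A pair of long stretches without positions stood out. Before UTF1, at -7745 to -6186 bp from its start (chr10:133222472-133224031), 1560 bp were uncovered and the midpoints on either side were 1700 bp apart, longer than 99.9% of autosomal distances. Before ZFP42, at -4904 to -3670 bp (chr4:187990867-187992101), 1235 bp were uncovered between midpoints 1375 bp apart. Elsewhere the widest distance was 660 bp. Both stretches hold repeated sequence. Of the 31-base words in them, 76.2% at UTF1 and 88.5% at ZFP42 occurred more than once in the reference, compared with 19.4% and 17.8% over the whole loci. At UTF1 the repeats lay within the stretch itself, where 86.4% of 20-base words recurred, and at ZFP42 7.65% did. Short reads from such sequence can be hard to place uniquely, and the part of this in the gaps was not tested.

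Exons of the genes varied in score along each gene. Over a gene, a position was exonic with at least 0.40 of its length in exons. For a single exon shorter than that, a position counted if it held the whole exon, and a position centred just outside the gene (2 bp before the start of DPPA3) was included, so the counts by exon exceed the total of DPPA2, DPPA3, DPPA4 and PRDM14 by 1. At DPPA2, 7 exonic positions had a mean of 20.8 ± 7.45 (SD over positions) and 113 intronic positions 17.1 ± 5.98. The highest exonic one, 34.5, lay in the coding exon 4 of 161 bp, while exons 5 and 8, of 54 and 65 bp, held none. At DPPA4 the 15 exonic positions (14.7 ± 7.44) and 39 intronic ones (14.1 ± 5.43) were alike, and 9 of the exonic ones lay in exon 7, which is mostly 3′UTR, with scores from 7.40 to 37.0. At DPPA3, 5 exonic positions had a mean of 12.8 ± 4.15 and 26 intronic ones 19.4 ± 10.5. Of the 31-base words of DPPA3 exons 2, 3 and 4, 79.1%, 100% and 73.5% occurred elsewhere in the genome as well, and the part of this in the scores was not tested.

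The zinc-finger genes carry much of their coding sequence in single long exons. ZFP42 has its whole coding sequence in exon 4 of 2334 bp, where 10 positions scored from 4.94 to 22.2, and its exonic mean was 14.5 ± 5.13 against 16.2 ± 6.23 in introns. In SALL4, exon 2 of 2331 coding bases held 12 positions from 4.94 to 28.4, with a mean of 17.3. Exon 4 of SALL4, mostly 3′UTR, held 15 positions from 7.40 to 34.5, with a mean of 15.9. In PRDM14 the 5 positions of exon 2 averaged 22.7 and the 4 of exon 8 averaged 14.2. The shorter exons 3, 4 and 5 held 1, 1 and 2 positions between 8.64 and 17.3. The other short exons, 1, 6 and 7, held 1 position each, with scores of 30.8, 21.0 and 22.2. In UTF1, exon 1 held 4 positions from 7.40 to 12.3 and exon 2 held 5 from 7.40 to 28.4. Exonic minus intronic means were 1.58 at PRDM14 and 0.71 at SALL4. Over the 6 genes with at least 3 positions of each kind the median difference was 0.64, with an SD of 3.52 over the genes, so neither kind was higher throughout.

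**Figure D5:**
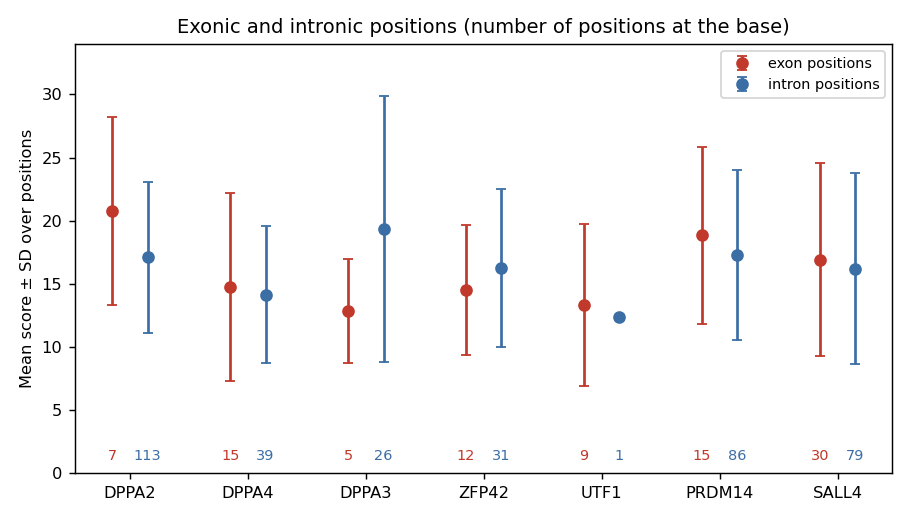
Mean score of exonic (red) and intronic (blue) positions in each gene body (y axis, authors' signal), with bars for the SD over positions and the number of positions at the base. The bars of the 2 kinds overlap in every gene with both, and UTF1 has a single intronic position without a bar.

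The 7 genes did not share 1 profile. Scores in 10-bp bins over the 2 kb around the start had Pearson's r between -0.40 and 0.19 over the 21 pairs of genes, with a median of 0.0054 over 201 bins. Against all 18519 other genes the median r of each member lay between -0.076 (UTF1) and 0.066 (DPPA2). Low values were thus not particular to pairs of members. Neighbouring bins share positions and are not independent. The protein-coding gene with the most similar profile to each was RHBDL1 for DPPA2 (r = 0.608), MAP4K3 for DPPA4 (0.728), TAF1C for DPPA3 (0.630), FBXL2 for ZFP42 (0.615), LYSET for UTF1 (0.716), CCNA2 for PRDM14 (0.578) and ZNF563 for SALL4 (0.609). Each is the highest of 18519 genes compared.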

How the data were processed

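Reads were mapped to GRCh38 by the authors, who masked blacklisted regions and applied the nucMACC workflow. Trimmomatic 0.40 is named in the submitters' processing notes. The deposited score is a signal that is never negative, with a scaling not given in the sources used here. No entry of the deposited list was filtered out, and a midpoint was the start of the interval plus 70 bp. The 7 genes were chosen by name and not by any value in the list. Earlier results of these data were known when the genes, the gene lists and the motifs were chosen. Starts are those of canonical transcripts in GENCODE release 44, and all 7 genes are described. Comparisons of starts with all genes, or with genes of like GC content, took only genes with a position within 1 kb on each side of the start. A listed gene outside the 7 is named only as the lowest or highest of its list, or as the most similar profile. Matched windows were all non-overlapping windows of the same length and chromosome, without unsequenced bases, outside the 7 loci and within 1 percentage point of GC. An exonic position had at least 0.40 of its length in exons, and for a single shorter exon it held that exon whole. Promoter sequences came from RefSeq (GRCh38.p14) and are printed for 5 of the 7 genes. SALL4 had no usable entry there, and PRDM14 was left out by choice. The calculations used Python 3.11.15, NumPy 2.4.6, pandas 2.3.3 and matplotlib 3.10.9. Of them, only the window densities, the window scores and the distances at starts were tested on simulated positions.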

Additional observations from a re-analysis of the deposited data

How the results depend on the processing

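Of 28 alternatives to 7 results, 22 stayed within the spread over the genes or within 1.5 times the count, 6 moved further and 0 reversed sign. Distances and counts are never negative, so they could not reverse. The spread is also a loose limit for density (median -0.053, SD 0.0525) and for exons against introns (0.64, SD 3.52). A value close to 0 would have counted as unchanged there. Leaving out UTF1, which had 4 matched windows, was chosen after seeing the data and gave a median log2 ratio of -0.033 in density and -0.065 in mean score. When only positions with at least the median score were kept, the median log2 density ratio of the loci moved to -0.14 (DPPA4 -0.39, ZFP42 -0.35, SALL4 -0.18), the median distance across the start to 480 bp (350 bp over all genes), the starts without a midpoint in the 200 bp upstream to 3 (51.8% of all genes) and the starts inside a position to 1 (29.8%). An upstream window of 100 bp gave 3 starts without a midpoint, where 57.4% of all genes had none. The upper decile of the chromosome in place of the upper quartile left 1 downstream position (38.3% of all genes). With the limit on score, the distance across the start went from shorter than over all genes (210 against 220 bp) to longer (480 against 350 bp). The cause of these changes was not tested. For single loci, 7 of 41 density ratios changed sign, in DPPA2, UTF1, PRDM14 and SALL4, and 2 of 41 score ratios, both in PRDM14. The largest such change was in SALL4, from 0.0067 to -0.18 in density, and UTF1 went from -0.081 to 0.069 with flanks of 5 kb. With flanks of 20 kb no window matched UTF1, and 6 loci remained. No paired analysis was possible because no library is separate in the pooled list, nor could a library be left out. The reads behind a score are unknown, so no limit from depth can be given.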
